A study of Mus musculus with 12 samples.

Results

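The genes described here are 10 genes of the response to low oxygen and of glycolysis: Egln1, Egln3, Adm, Bnip3, Ndrg1, Hk2, Pfkfb3, Pgk1, Ldha and Pdk1. Every probe that the platform annotation assigns to them was read, which gave 14 of the 25697 probes on each array and 10 of the 16593 genes with a probe. Their levels were followed in primary mouse embryonic fibroblasts (MEFs), which are connective-tissue cells cultured from embryos, here C57BL6/J embryos at stage E15.5. Of 12 Illumina bead arrays, 3 were run on each of 4 groups. Control cells, Cry1+/-Cry2+/- in the sample labels and wild type in the design text, and double knockout (dKO) cells, Cry1-/-Cry2-/-, each received either 1 µM dexamethasone (Dex), a synthetic glucocorticoid hormone, or ethanol (EtOH) for 16 hours. The labels name the 3 arrays of a group biological replicates and do not say whether these came from separate embryos or cultures, so the p-values below measure the spread between these arrays.

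Cells sense oxygen through prolyl hydroxylases of the EGLN family, which use oxygen to mark the alpha subunits of the hypoxia-inducible factors (HIF) for destruction. When oxygen falls, HIF accumulates, binds DNA elements with the cores ACGTG or GCGTG and raises genes of glucose uptake, glycolysis, lactate formation and blood vessel growth, together with Egln1 and Egln3, which feed back on it. Glucocorticoids act on the same fuel metabolism through the glucocorticoid receptor, and the cryptochromes Cry1 and Cry2 are repressors of the circadian clock that the series title links to that receptor.

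The promoters of 4 of the genes that rose with Dex are shown because the 2 kinds of HIF core can be seen in them. Each is the 250 bases before a transcription start in RefSeq (build GRCm38.p6), read 5′ to 3′ on the strand of the gene, and the capitals mark the cores on either strand (CACGT and CACGC are the cores of the other strand). They cover chr12:54203875-54204124 on the minus strand for Egln3, chr7:110627407-110627656 on the plus strand for Adm, chr6:82774455-82774704 on the minus strand for Hk2 and chr7:46845554-46845803 on the plus strand for 1 of the 2 starts of Ldha.
Egln3: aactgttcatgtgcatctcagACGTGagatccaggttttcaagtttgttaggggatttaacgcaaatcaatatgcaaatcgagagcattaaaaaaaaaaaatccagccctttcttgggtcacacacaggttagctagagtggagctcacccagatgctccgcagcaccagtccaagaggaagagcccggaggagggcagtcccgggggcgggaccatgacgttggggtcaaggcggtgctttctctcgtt
Adm: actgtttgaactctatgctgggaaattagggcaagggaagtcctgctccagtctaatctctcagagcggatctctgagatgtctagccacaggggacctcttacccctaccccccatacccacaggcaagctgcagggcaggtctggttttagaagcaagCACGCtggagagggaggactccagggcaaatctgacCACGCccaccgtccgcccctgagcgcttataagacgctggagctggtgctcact
Hk2: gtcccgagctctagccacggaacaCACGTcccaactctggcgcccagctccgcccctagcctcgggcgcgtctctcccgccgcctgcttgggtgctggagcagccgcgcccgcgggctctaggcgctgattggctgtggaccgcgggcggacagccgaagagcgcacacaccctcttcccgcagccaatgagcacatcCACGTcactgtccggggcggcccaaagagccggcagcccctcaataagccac
Ldha: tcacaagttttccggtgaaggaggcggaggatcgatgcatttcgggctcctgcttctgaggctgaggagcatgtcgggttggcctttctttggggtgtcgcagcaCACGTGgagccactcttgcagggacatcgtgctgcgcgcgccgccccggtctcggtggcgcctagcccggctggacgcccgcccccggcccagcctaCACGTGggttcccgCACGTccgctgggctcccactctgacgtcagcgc
RefSeq windows were at hand for 9 of the 10 genes, 12 windows in all, and Ndrg1 was the gene without one. ACGTG or GCGTG, searched on both strands, lay in 11 of the 12 windows, and 38.6% of 32851 promoter windows of the genome held one of them. The E-box CACGTG, which reads as ACGTG on both strands and is the site of the clock activators, was found in a window of Bnip3, Pfkfb3 and Ldha, against 6.02% of all windows, and the Ldha window printed above holds 2 of them. The palindromic glucocorticoid receptor motif, GNACA and TGTNC with 3 free bases between them, was found in 0 of the 12 windows and in 0.387% of all windows. A match describes the letters in these windows only.

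All levels below are on the log2 scale, background-corrected and quantile-normalized. A change is a difference of group means, the figure after ± is its standard error (SE) in the model, and n is 3 arrays per group. A probe is above background on an array when its detection p-value is under 0.01. A gene was called when limma gave an adjusted p under 0.05, over 8420 genes. Levels of different probes are not compared with each other. Of the 10 genes 8 could be tested. The single probes of Bnip3, which promotes the removal of mitochondria, and of Pfkfb3, which makes the activator of phosphofructokinase, were not above background on any of the 12 arrays, nor were 1 of the 3 Egln1 probes and 1 of the 2 Egln3 probes. Group means of the Bnip3 probe ran from 4.70 to 5.19 and those of the Pfkfb3 probe from 5.24 to 5.44, so these arrays give no comparison for either gene.

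Each array had 10953 to 11527 probes above background, and its median signal was 187 to 216. The probe for Cry1 did not rise above background on any array, and the Cry2 probe had group means of 6.16 and 6.64 in control and 6.63 and 6.77 in dKO cells. Where these probes lie relative to the deletions is not known here, so they do not check the genotypes. Fkbp5, a classic receptor target, rose with Dex by 4.50 ± 0.15 in control and 4.82 ± 0.15 in dKO cells, and Per2, a clock gene under cryptochrome repression, was higher in dKO cells by 2.86 ± 0.13 in EtOH and 3.40 ± 0.13 in Dex. Another point concerns 3 arrays, control_Dex replicate 3 and dKO_EtOH replicates 1 and 2, which stood apart on the third principal component (14.9% of the variance), and results that rest on them are given with and without them. Without them dKO EtOH is left with replicate 3 alone, which is then assumed to vary like the other groups. All 9 fibroblast markers with a probe were above background on all 12 arrays. Of 9 macrophage markers with a probe 7 were too, and so were 1 of 6 endothelial (Emcn), 2 of 5 skeletal muscle (Des and Acta1) and 2 of 3 neural markers (Stmn2 and Map2), while 5 of 5 epithelial and 4 of 4 erythroid markers were above background on 0 arrays.

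In control cells Dex raised Egln3, Adm and Hk2. Egln3, a prolyl hydroxylase of HIF, rose 2.83-fold, Adm, which encodes the vasodilator peptide adrenomedullin, 1.86-fold, and Hk2, the hexokinase that commits glucose to glycolysis, 1.23-fold. These were 3 of the 8 tested genes, all higher, where 20.3% of all genes were called and 8.85% were called higher. The other 5 had changes between 0.08 and 0.63 and were not called. The Dex and EtOH arrays did not overlap for 4 of the 8, as for 38.1% of all genes. The median change of the 8 was 0.36 and that of all genes was -0.04.

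In dKO cells Dex raised Egln3, Adm, Ndrg1 and Ldha. Egln3 rose 2.93-fold, Adm 1.87-fold, Ndrg1, a stress-response and differentiation gene induced by low oxygen, 2.04-fold, and Ldha, the lactate dehydrogenase subunit that favours lactate, 1.29-fold. These were 4 of the 8 tested genes, all higher, where 14.6% of all genes were called, 8.62% higher and 5.99% lower. The Dex and EtOH arrays did not overlap for 6 of the 8, as for 32.9% of all genes. The median change of the 8 was 0.33 against 0.03 for all genes. Both Dex comparisons use separate arrays, but all 4 groups share the model's estimate of the spread.

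**Figure D1:**
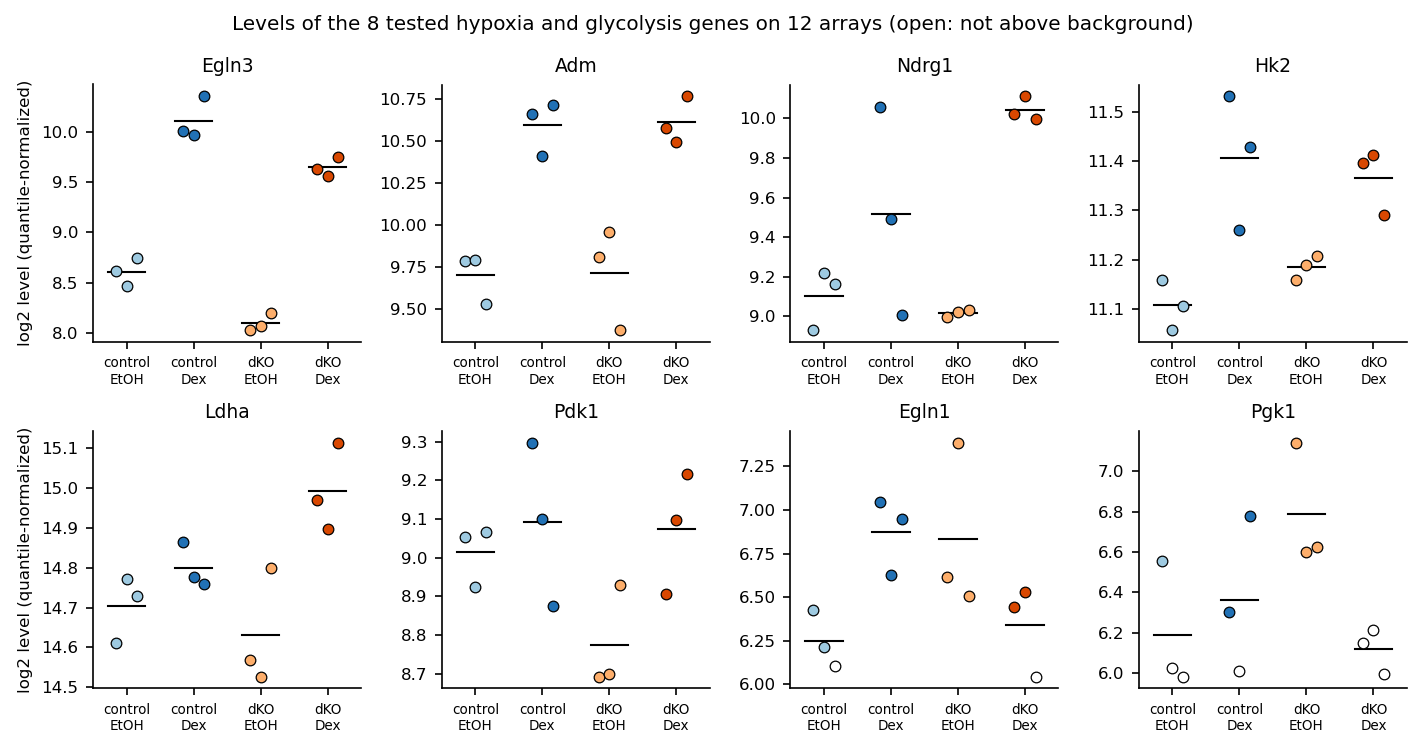
Log2 level of each of the 8 tested genes (y axis, own scale per panel) on each of the 12 arrays by group (x axis); bars are group means and open circles are arrays on which the probe was not above background. The Egln3 and Adm points of the Dex groups lie above those of the EtOH groups in both genotypes, and the Egln1 and Pgk1 points lie near background.

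Among the oxygen sensors, Egln3 (chr12:54178981-54203874, GRCm38.p6) had the clearest pattern, on the probe ILMN_2605819. Its log2 levels were 8.62, 8.47 and 8.75 in control EtOH and 10.01, 9.97 and 10.36 in control Dex. In dKO cells they were 8.03, 8.07 and 8.20 in EtOH and 9.63, 9.57 and 9.76 in Dex. All 6 Dex arrays were above all 6 EtOH arrays, and within each treatment every dKO array was below every control array. Dex raised it by 1.50 ± 0.12 in control cells (adjusted p = 6.57e-06) and by 1.55 ± 0.12 in dKO cells (adjusted p = 5.97e-06), which placed it 89th and 77th from the top among 8420 genes. The difference between these Dex changes was 0.05, with a 95% interval of -0.33 to 0.43, and was not called (adjusted p = 0.880).

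Egln1 (chr8:124908587-124949254), the main hydroxylase of HIF in most tissues, was read by 2 probes close to background. On ILMN_2617090, above background on 10 arrays, the levels were 6.43, 6.21 and 6.10 in control EtOH, 7.04, 6.63 and 6.95 in control Dex, 6.61, 7.39 and 6.51 in dKO EtOH and 6.45, 6.53 and 6.04 in dKO Dex. Dex arrays were thus above EtOH arrays in control cells, while in dKO cells the groups overlapped with the lower mean in Dex. The changes were 0.63 ± 0.22 in control cells (adjusted p = 0.0679) and -0.50 ± 0.22 in dKO cells (adjusted p = 0.153), and neither was called. Their difference of -1.12 ± 0.31 was not called either (adjusted p = 0.0786), but it was with median scaling (-1.10, adjusted p = 0.0474), with array weights (-1.18, adjusted p = 0.0132) and without dKO_EtOH replicate 3 (-1.29, adjusted p = 0.0249). It was -0.85 without dKO_EtOH replicate 2 (adjusted p = 0.129) and -0.76 without the 3 arrays set apart (adjusted p = 0.230). The change in dKO cells was -0.22 without dKO_EtOH replicate 2, the highest array (adjusted p = 0.501), and -0.17 without the 3 arrays set apart (adjusted p = 0.737). Without dKO_EtOH replicate 2 or 3 the change in control cells was called at the same 0.63 (adjusted p = 0.0170 and 0.0470), as it was without the 3 arrays set apart (0.59, adjusted p = 0.0420). Between genotypes it was 0.59 ± 0.22 higher in dKO cells in EtOH, which was not called (adjusted p = 0.0683), and this difference was 0.31 without dKO_EtOH replicate 2 (adjusted p = 0.245) and 0.26 without the 3 arrays set apart. It was called with array weights (0.85, adjusted p = 0.00423) and without dKO_EtOH replicate 3 (0.75, adjusted p = 0.0246). In Dex the probe had a genotype difference of -0.53, called without dKO_EtOH replicate 2 (adjusted p = 0.0367) and not with all arrays (adjusted p = 0.113). Across the alternatives the Dex change ran from 0.24 to 0.75 in control cells and from -0.72 to -0.17 in dKO cells. The difference between these changes ran from -1.29 to -0.44.

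The probe ILMN_2617087 of Egln1 was above background on all 3 arrays of control Dex (6.32, 6.36 and 6.52) and of dKO EtOH (6.65, 6.24 and 6.65), and on none of control EtOH (5.48, 6.004 and 5.91) or dKO Dex (6.18, 5.83 and 5.88). It passed the filter only through the groups where it was high, so that it had to differ from the others, where its levels are only upper bounds. The groups that Dex separates did not overlap in either genotype, and they stood in opposite order. In the limma fit with 11382 probes as separate items, 17.2% were called for Dex in control, 12.9% for Dex in dKO and 23.8% for genotype in EtOH. There this probe was called higher with Dex in control cells (adjusted p = 0.0274) and lower in dKO cells (adjusted p = 0.0493). It was also called higher in dKO than in control cells without hormone (adjusted p = 0.00993). Because the filter kept the probe through its high groups, neither these calls nor the lack of overlap is evidence of a change. Bounds were taken with the dim group raised to the lowest level above background on each array. They were 1.15-fold higher with Dex in control cells, 1.15-fold lower in dKO cells and 1.25-fold higher in dKO cells without hormone. These bounds carry no standard error. The Dex call in dKO cells was lost in 20 of 24 alternatives (adjusted p between 0.0351 and 0.161). Among these were the fits without dKO_EtOH replicate 1 or 3, any 1 dKO_Dex array, control_EtOH replicate 2 or 3, or control_Dex replicate 1 or 2. The Dex call in control cells was lost in 9 of 24 (adjusted p between 0.0135 and 0.109). Among these were the fits without control_EtOH replicate 1 or 3 or control_Dex replicate 2 or 3. Without background correction the Dex changes of this probe were 0.19 in control and -0.19 in dKO cells, in place of 0.60 and -0.55. Neither was then called (adjusted p = 0.109 and 0.122).

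**Figure D2:**
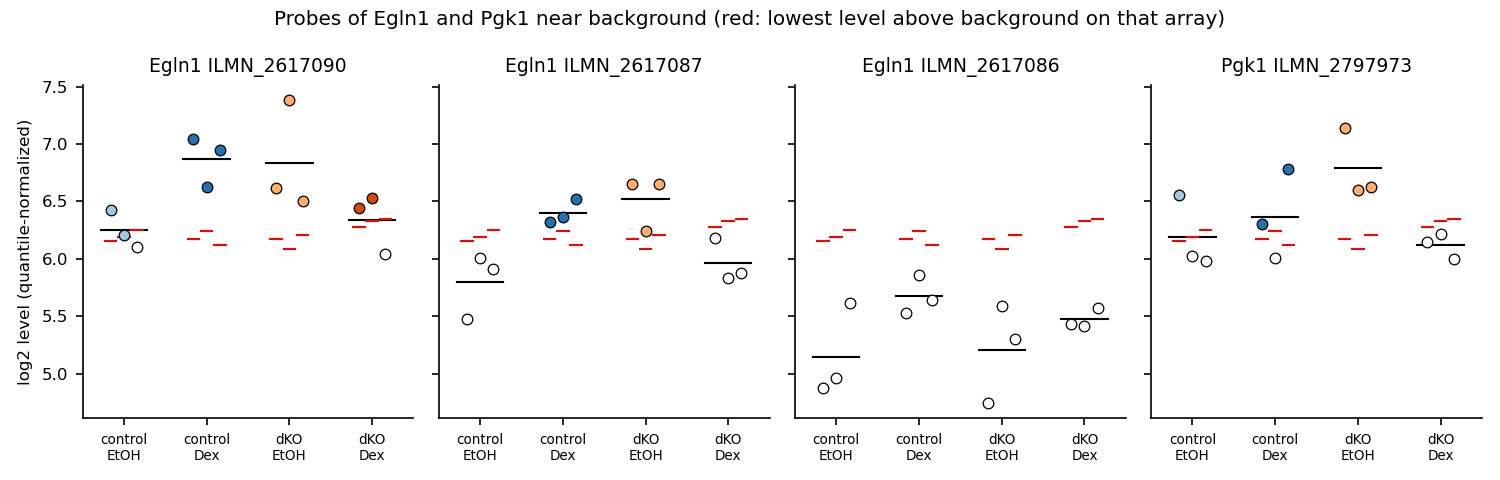
Log2 levels (y axis) of the 3 probes of Egln1 and the probe of Pgk1 on each array by group (x axis); bars are group means, open circles are arrays where the probe was not above background, and red ticks give the lowest level above background on that array. ILMN_2617087 of Egln1 is filled in control Dex and dKO EtOH only, and ILMN_2617086 is open on all 12 arrays.

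Adm (chr7:110627657-110629820) encodes a secreted peptide that widens blood vessels and protects endothelium. Its levels were 9.78, 9.79 and 9.53 in control EtOH and 10.66, 10.41 and 10.72 in control Dex. In dKO cells they were 9.81, 9.96 and 9.37 in EtOH and 10.58, 10.49 and 10.77 in Dex. Every Dex array was above every EtOH array, and within each treatment the genotypes overlapped. Dex raised Adm by 0.89 ± 0.15 in control cells (adjusted p = 0.00165) and by 0.90 ± 0.15 in dKO cells (adjusted p = 0.00244). The difference between the changes was 0.01, with a 95% interval of -0.47 to 0.48 (adjusted p = 0.993).

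Ndrg1 (chr15:66929318-66969641) was read by 2 probes that were above background on all 12 arrays. On ILMN_1250195 the levels were 8.93, 9.22 and 9.16 in control EtOH and 10.06, 9.49 and 9.01 in control Dex, so that the control groups overlapped and the Dex arrays spread over more than 1 log2 unit. In dKO cells they were 8.99, 9.02 and 9.03 in EtOH and 10.02, 10.11 and 9.996 in Dex, without overlap. The change was 0.42 ± 0.20 in control cells, which was not called (adjusted p = 0.180), and 1.03 ± 0.20 in dKO cells (adjusted p = 0.00562). Without control_Dex replicate 3, the lowest array of that group and 1 of the 3 set apart, the change in control cells was 0.67 and was called (adjusted p = 0.0118), and without control_Dex replicate 1, the highest, it was 0.15 and was not (adjusted p = 0.524). On ILMN_2646166 the levels were 8.55, 8.63 and 8.38 in control EtOH, 9.28, 8.81 and 8.86 in control Dex, 8.45, 8.44 and 8.38 in dKO EtOH and 9.39, 9.47 and 9.62 in dKO Dex. Both control groups were apart on this probe, which rose by 0.46 ± 0.13 in control cells (adjusted p = 0.0325) and by 1.07 ± 0.13 in dKO cells (adjusted p = 0.000341) in the fit of all probes. The call in control cells was lost in 9 of 24 alternatives, among them without control_EtOH replicate 1 (0.48, adjusted p = 0.0766), control_EtOH replicate 2 (0.51, adjusted p = 0.0523), control_EtOH replicate 3 (0.39, adjusted p = 0.126) or control_Dex replicate 1 (0.31, adjusted p = 0.0892). The Dex changes differed between genotypes by 0.61 ± 0.28 on the first probe and 0.60 ± 0.19 on the second, and neither difference was called (adjusted p = 0.227 and 0.105). With array weights both were (adjusted p = 0.0458 and 0.0156), and without control_Dex replicate 1 the second was (0.75, adjusted p = 0.0479).

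Among the enzymes of glycolysis, Hk2 (chr6:82725025-82774454) had levels of 11.16, 11.06 and 11.11 in control EtOH and 11.53, 11.26 and 11.43 in control Dex. In dKO cells they were 11.16, 11.19 and 11.21 in EtOH and 11.40, 11.41 and 11.29 in Dex. The Dex arrays were above the EtOH arrays in both genotypes. The change of 0.30 ± 0.09 in control cells was called (adjusted p = 0.0378) and that of 0.18 ± 0.09 in dKO cells was not (adjusted p = 0.209), and the difference between them, -0.12 ± 0.13, was not called (adjusted p = 0.609). The call in control cells stood near the threshold and was lost in 15 of 25 alternatives. It was lost without control_EtOH replicate 1 (0.33, adjusted p = 0.0700), replicate 2 (0.28, adjusted p = 0.118) or replicate 3 (0.30, adjusted p = 0.0982) and without control_Dex replicate 1 (0.24, adjusted p = 0.114) or replicate 3 (0.29, adjusted p = 0.0839). At the same change of 0.30 it was also lost without dKO_EtOH replicate 2 (adjusted p = 0.0521) or dKO_Dex replicate 1 or 2 (adjusted p = 0.0547 and 0.0541).

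Pgk1 (chrX:106187100-106203699), the phosphoglycerate kinase of the ATP-forming part of glycolysis, was read by a dim probe that was above background on 6 arrays. Its levels were 6.56, 6.02 and 5.98 in control EtOH, 6.30, 6.01 and 6.78 in control Dex, 7.14, 6.60 and 6.62 in dKO EtOH and 6.15, 6.22 and 5.997 in dKO Dex. All dKO EtOH arrays and none of the dKO Dex arrays were above background. The change with Dex in dKO cells, at least 1.39-fold lower with the dim group at the lowest level above background, was not called (adjusted p = 0.0616), nor was the change of 0.17 ± 0.22 in control cells (adjusted p = 0.630). The lower level in dKO Dex was called without control_Dex replicate 3 (adjusted p = 0.0294) or dKO_EtOH replicate 3 (adjusted p = 0.0441), and not without the 3 arrays set apart (adjusted p = 0.232). Without hormone the probe was 0.60 ± 0.22 higher in dKO cells, which was not called (adjusted p = 0.0609), but was called without control_EtOH replicate 1 (0.78, adjusted p = 0.0323), control_Dex replicate 3 (0.60, adjusted p = 0.0301) or dKO_EtOH replicate 3 (0.68, adjusted p = 0.0481). Without the 3 arrays set apart it was 0.44 (adjusted p = 0.238).

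At the fork between lactate and mitochondria, Ldha (chr7:46842274-46855627) had levels of 14.61, 14.77 and 14.73 in control EtOH, 14.86, 14.78 and 14.76 in control Dex, 14.57, 14.53 and 14.80 in dKO EtOH and 14.97, 14.90 and 15.11 in dKO Dex. The 3 dKO Dex arrays were the highest of the 12. Dex raised Ldha by 0.36 ± 0.10 in dKO cells (adjusted p = 0.0351), and the change of 0.10 ± 0.10 in control cells was not called (adjusted p = 0.560). The difference between the Dex changes, 0.27 ± 0.14, was not called (adjusted p = 0.294). The call in dKO cells was lost in 11 of 25 alternatives. It was lost without control_EtOH replicate 3 (0.36, adjusted p = 0.0533), without dKO_EtOH replicate 1 (0.33, adjusted p = 0.115) or replicate 2 (0.31, adjusted p = 0.134), without dKO_Dex replicate 1 (0.37, adjusted p = 0.0812), replicate 2 (0.41, adjusted p = 0.0529) or replicate 3 (0.30, adjusted p = 0.130), and without the 3 arrays set apart (0.20, adjusted p = 0.424).

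Pdk1 (chr2:71873215-71903858) is a kinase that switches pyruvate dehydrogenase off and so holds pyruvate back from mitochondria. Its levels were 9.05, 8.92 and 9.07 in control EtOH and 9.30, 9.10 and 8.88 in control Dex. In dKO cells they were 8.69, 8.70 and 8.93 in EtOH and 8.91, 9.10 and 9.22 in Dex. The Dex and EtOH groups overlapped in both genotypes, and neither the change of 0.08 ± 0.13 in control cells (adjusted p = 0.730) nor that of 0.30 ± 0.13 in dKO cells (adjusted p = 0.140) was called. With array weights the change in dKO cells was 0.34 and was called (adjusted p = 0.0205).

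Between genotypes, Egln3 was the 1 tested gene that was called, lower in dKO cells under both treatments. Without hormone it was 1.43-fold lower (-0.51 ± 0.12, adjusted p = 0.00988), where 26.5% of all genes were called, 10.7% higher and 15.8% lower. Under Dex it was 1.38-fold lower (-0.46 ± 0.12, adjusted p = 0.0201), where 19.7% of all genes were called, 9.92% higher and 9.82% lower. The first call was lost without the 3 arrays set apart (-0.41, adjusted p = 0.0750), and the second without control_Dex replicate 3 (-0.34, adjusted p = 0.0561), dKO_Dex replicate 1 (-0.45, adjusted p = 0.0606) or dKO_Dex replicate 2 (-0.42, adjusted p = 0.0725). The second probe of Ndrg1 was higher in dKO cells under Dex by 0.51 ± 0.13 (adjusted p = 0.0212, where 16.6% of probes were called), whereas the first probe was not called (0.52 ± 0.20, adjusted p = 0.0909) except with array weights (0.51, adjusted p = 0.0107) or without control_Dex replicate 1 (0.79, adjusted p = 0.00399). The call of the second probe was lost without control_Dex replicate 2 (0.42, adjusted p = 0.0809) or replicate 3 (0.45, adjusted p = 0.0587) and without dKO_Dex replicate 2 (0.52, adjusted p = 0.0538) or replicate 3 (0.45, adjusted p = 0.0876). The other 7 tested genes lay between -0.24 and 0.60 in EtOH and between -0.53 and 0.52 in Dex, and the median of the 8 was -0.03 under both treatments, against -0.05 and 0.01 for all genes. The dKO and control arrays did not overlap for 4 of the 8 in EtOH, as for 43.1% of all genes, and for 3 in Dex, as for 36.7%. Adm differed by 0.01 (95% interval -0.33 to 0.35) in EtOH, which became -0.22 with median scaling, and by 0.02 (-0.32 to 0.36) in Dex.

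The genotypes also differed in markers of other cells. Of 8 tested macrophage markers 7 were lower in dKO cells in EtOH and 6 in Dex, with median changes of -0.90 and -0.64, and the log2 of their summed levels was 16.07 to 16.25 in control EtOH, 16.03 to 16.22 in control Dex, 15.46 to 15.98 in dKO EtOH and 15.55 to 15.59 in dKO Dex. Of 9 fibroblast markers 7 were higher and 1 lower in dKO cells in EtOH, and 6 were higher in Dex. Of 2 neural markers 1 was higher in dKO cells in EtOH and 2 in Dex, and of 2 skeletal muscle markers 1 was higher and 1 lower under each treatment. Among all genes, 10.7% were called higher and 15.8% lower in dKO cells in EtOH, and 9.92% and 9.82% in Dex. With Dex, 3 macrophage markers rose and 4 fell in control cells and 2 rose in dKO cells. The shares of all genes called higher and lower with Dex were 8.85% and 11.4% in control and 8.62% and 5.99% in dKO cells. Emcn was the 1 endothelial marker of 6 that could be tested. It rose with Dex by 1.09 in control and 1.86 in dKO cells and was lower in dKO cells in EtOH (-1.03). The endothelial markers Pecam1, Cdh5, Kdr and Tie1 were above background on 0 arrays. Tek was above background on 2, and its means were lower in Dex (6.20 to 5.62 in control and 5.93 to 5.48 in dKO cells). Of 2 skeletal muscle markers 1 rose with Dex in each genotype, and of 2 neural markers 1 rose and 1 fell in control cells and 1 rose in dKO cells. The part of these cell types in the changes of the 10 genes was not tested, and in these bulk cultures fewer cells of a type and less RNA per cell cannot be told apart.

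**Figure D3:**
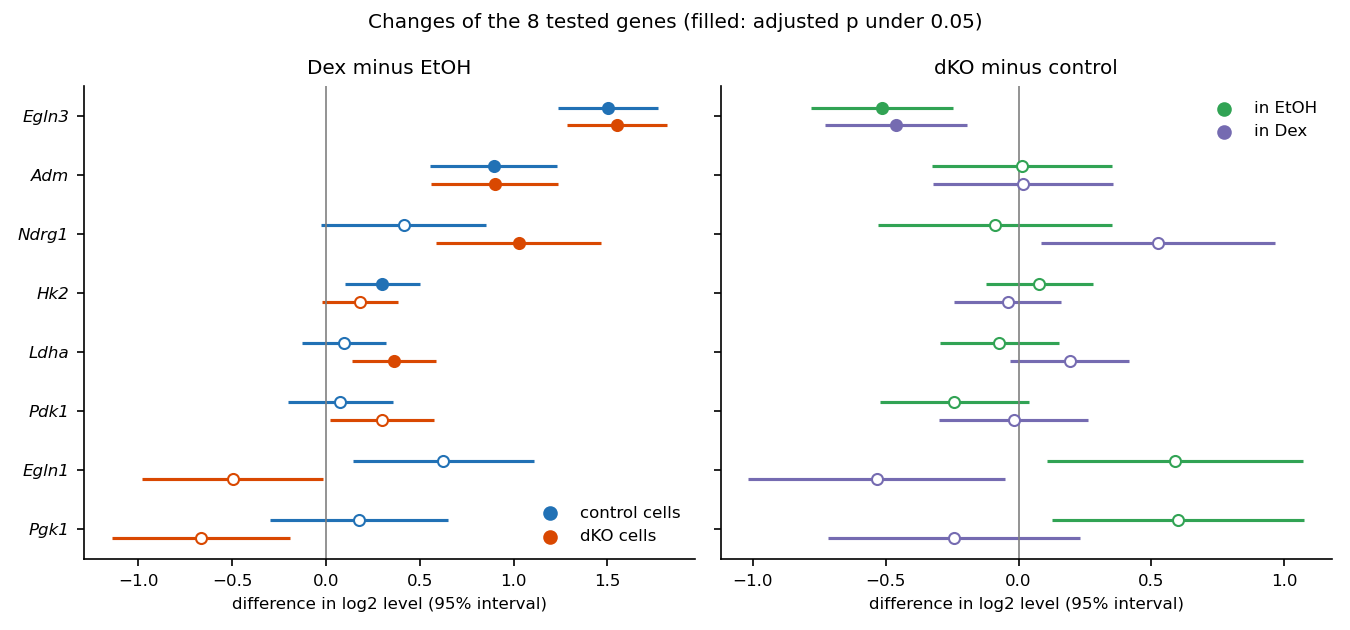
Differences in log2 level (x axis) of the 8 tested genes for Dex minus EtOH in each genotype (left) and for dKO minus control under each treatment (right), with 95% intervals as lines and filled circles for an adjusted p under 0.05. Egln3 and Adm have nearly the same Dex change in control and dKO cells, and the Egln1 and Pgk1 points of the 2 genotypes lie on opposite sides of 0.

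None of the 8 tested genes had a Dex change that differed between genotypes at an adjusted p under 0.05 in limma, where 2.29% of all genes were called, 1.28% higher and 1.01% lower. At an unadjusted p under 0.05 in limma there were 2, Egln1 and Pgk1, both read close to background, where 22.5% of all genes passed that threshold. The median of the 8 differences was 0.03, against 0.08 for all genes.

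The wider pathway was followed in 7 lists of 95 further genes, of which 65 could be tested. Dex raised 16 and lowered 4 of them in control cells and raised 17 and lowered 2 in dKO cells, with medians of 0.08 and 0.11 against -0.04 and 0.03 for all genes. Of all genes, 8.85% were called higher and 11.4% lower in control cells, and 8.62% and 5.99% in dKO cells. Of the 10 tested genes of HIF and its regulators only Arnt was called, which encodes the constant partner of the HIF alpha subunits. It rose by 0.45 ± 0.11 in control and 0.41 ± 0.11 in dKO cells (adjusted p = 0.0146 and 0.0300), and the calls were lost in 5 and 14 of 25 alternatives. The first was lost without control_EtOH replicate 1 (0.43, adjusted p = 0.0514), and the second without dKO_EtOH replicate 1 or 2, any 1 dKO_Dex array (0.34 to 0.43 over these 5) or the 3 arrays set apart (0.27, adjusted p = 0.191). Without background correction the Arnt changes were 0.18 and 0.16 (adjusted p = 0.0898 and 0.158), and they were 0.19 and 0.17 with the deposited normalized table. Hif1a, the oxygen-regulated alpha subunit, had levels of 8.01, 7.79 and 7.72 in control EtOH, 8.47, 7.98 and 9.23 in control Dex, 8.92, 8.96 and 8.04 in dKO EtOH and 8.27, 8.53 and 8.40 in dKO Dex. The 3 arrays set apart were the highest of the 12 for it, and no comparison of Hif1a was called. Its change with Dex in control cells, 0.72 ± 0.30, was called without control_Dex replicate 2 (1.01, adjusted p = 0.0328) and was 0.39 without control_Dex replicate 3 (adjusted p = 0.350). The genotype difference in EtOH, 0.80 ± 0.30, was 0.20 without the 3 arrays set apart (adjusted p = 0.560), and was called in 7 other alternatives, among them without control_Dex replicate 2 or 3 (both 0.80, adjusted p = 0.0409 and 0.0213) or dKO_EtOH replicate 3 (1.10, adjusted p = 0.0101).

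HIF target genes outside glycolysis moved both ways. In control cells 6 of 21 rose and 3 fell, and in dKO cells 6 rose and 1 fell, beside the shares over all genes of 8.85% and 11.4% in control and 8.62% and 5.99% in dKO cells. Lox, which cross-links collagen, rose by 1.22 ± 0.11 in control and 0.56 ± 0.11 in dKO cells, the second call lost without the 3 arrays set apart (0.48, adjusted p = 0.116). P4ha2, a collagen prolyl hydroxylase subunit, rose by 0.69 ± 0.18 in control (adjusted p = 0.0194) and 1.25 ± 0.18 in dKO cells. Ddit4, an inhibitor of mTOR signalling, rose by 0.69 ± 0.11 in control cells. Angptl4, a secreted inhibitor of lipoprotein lipase, fell by 1.38 on the log2 scale in control cells (SE 0.17) and by 0.88 in dKO cells (SE 0.17). Bhlhe40 (-0.50 ± 0.09, adjusted p = 0.00233) and Car9 (-0.58 ± 0.16, adjusted p = 0.0208) also fell with Dex in control cells. Vegfa, the blood vessel growth factor, did not pass with Dex in control cells (0.08 ± 0.16, adjusted p = 0.772) or dKO cells (-0.40 ± 0.16, adjusted p = 0.119). It was higher in dKO than in control cells without hormone (0.86 ± 0.16, adjusted p = 0.00216), at 10.60, 10.51 and 10.87 in control EtOH against 11.70, 11.54 and 11.33 in dKO EtOH. Without hormone Car9, a carbonic anhydrase induced by low oxygen, had a dKO minus control difference of -1.08 ± 0.16 (adjusted p = 0.00045), and in Dex of -0.66 ± 0.16 (adjusted p = 0.0111). In dKO Dex, Car9 was above background on 1 of 3 arrays (mean 6.30), so the size of the difference in Dex is limited by background.

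In the glycolytic chain and its transporters 3 of 14 genes rose and 1 fell with Dex in control cells, and 4 rose in dKO cells. Of all genes, 8.85% were called higher and 11.4% lower in control cells, and 8.62% and 5.99% in dKO cells. Slc2a1, the basal glucose transporter, had levels of 12.01, 11.74 and 11.69 in control EtOH, 12.57, 12.26 and 12.22 in control Dex, 11.42, 11.50 and 11.56 in dKO EtOH and 12.25, 12.31 and 12.23 in dKO Dex. It rose by 0.54 ± 0.12 in control (adjusted p = 0.00705) and 0.77 ± 0.12 in dKO cells (adjusted p = 0.00112) without overlap of the groups, and the call in control cells was lost with median scaling (0.38, adjusted p = 0.0995). Slc2a3, a high-affinity glucose transporter, rose by 0.85 ± 0.17 in dKO cells, a call lost without the 3 arrays set apart (0.48, adjusted p = 0.127). Eno3 and Pfkl, an enolase and a phosphofructokinase, rose in both genotypes, Eno3 by 0.60 ± 0.12 and 0.49 ± 0.12 and Pfkl by 0.49 ± 0.12 and 0.44 ± 0.12. In dKO cells the Eno3 call was lost without dKO_EtOH replicate 1 (0.46, adjusted p = 0.0652), dKO_Dex replicate 2 (0.48, adjusted p = 0.0582) or replicate 3 (0.48, adjusted p = 0.0601), and the Pfkl call without dKO_EtOH replicate 1 (0.34, adjusted p = 0.124) or any 1 dKO_Dex array (0.39 to 0.49). In control cells the Pfkl call was lost with median scaling (0.35, adjusted p = 0.127) and without control_Dex replicate 2 (0.44, adjusted p = 0.0513). Aldoc, an aldolase, fell by 1.00 on the log2 scale in control cells (SE 0.16) and was lower in dKO than in control cells without hormone (-1.25 ± 0.16).

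Among the 65 list genes the largest Dex change in control cells was that of Pdk4. This kinase inhibits pyruvate dehydrogenase and is a known glucocorticoid target, and Pdk4 levels were 9.91, 9.53 and 9.69 in control EtOH and 12.34, 12.50 and 12.37 in control Dex. In dKO cells they were 10.39, 10.26 and 10.76 in EtOH and 12.44, 12.38 and 12.45 in Dex. It rose by 2.69 ± 0.14 and 1.95 ± 0.14 (adjusted p = 1.28e-07 and 2.20e-06), while its relative Pdk1 was not called in either genotype. Pdp1, the phosphatase that reactivates the complex, rose by 1.38 ± 0.16 and 0.82 ± 0.16, and Pdha1, the catalytic subunit they act on, by 0.61 ± 0.08 and 0.43 ± 0.08, the last lost without the 3 arrays set apart (0.38, adjusted p = 0.0784). These were 3 of 8 tested genes in each genotype, where 8.85% of all genes were called higher in control and 8.62% in dKO cells. Of 3 tested relatives of Pfkfb3 and of gluconeogenesis none was called by limma in any comparison.

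Adrenomedullin acts through a receptor made of Calcrl and Ramp2 or Ramp3, and Pam amidates the peptide to its active form. Calcrl was not above background on any array. Ramp1, of the same family, rose with Dex by 1.23 ± 0.15 in control and 1.81 ± 0.15 in dKO cells. Ramp2, the partner that makes the receptor specific for adrenomedullin, had levels of 7.03, 7.04 and 6.98 in control EtOH, 7.87, 7.65 and 7.22 in control Dex, 7.56, 7.46 and 6.89 in dKO EtOH and 10.41, 10.69 and 10.26 in dKO Dex. The 3 dKO Dex arrays were far above the other 9. The Dex change of Ramp2 was 0.56 ± 0.20 in control cells, which was not called (adjusted p = 0.0682), and 3.15 ± 0.20 in dKO cells (adjusted p = 1.0e-06). The difference of 2.59 ± 0.28 was called (adjusted p = 0.000851) and in 24 of 24 alternatives lay between 2.02 and 2.82 with a call. Ramp3 was higher in dKO cells in EtOH (1.97 ± 0.18) and Dex (1.26 ± 0.18), and rose with Dex in control cells by 0.71 ± 0.18 (adjusted p = 0.0167), a call lost without control_EtOH replicate 3 (0.52, adjusted p = 0.0668) or control_Dex replicate 1 (0.67, adjusted p = 0.0507).

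Pam had levels of 8.17, 8.28 and 7.93 in control EtOH, 8.38, 8.43 and 8.99 in control Dex, 9.29, 9.46 and 8.81 in dKO EtOH and 8.32, 8.61 and 8.33 in dKO Dex. It was higher in dKO than in control cells without hormone (1.06 ± 0.20, adjusted p = 0.00215) and fell with Dex in dKO cells (-0.77 ± 0.20, adjusted p = 0.0224). The 3 arrays set apart were the highest of the 12, and without them the change with Dex in dKO cells was -0.40 and not called (adjusted p = 0.207), and the genotype difference was 0.69 (adjusted p = 0.0222). The Pam call with Dex in dKO cells was also lost without dKO_EtOH replicate 1 or 2 (-0.72 and -0.63, adjusted p = 0.0779 and 0.0964) or dKO_Dex replicate 1 or 3 (both -0.72, adjusted p = 0.0774 and 0.0770).

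**Figure D4:**
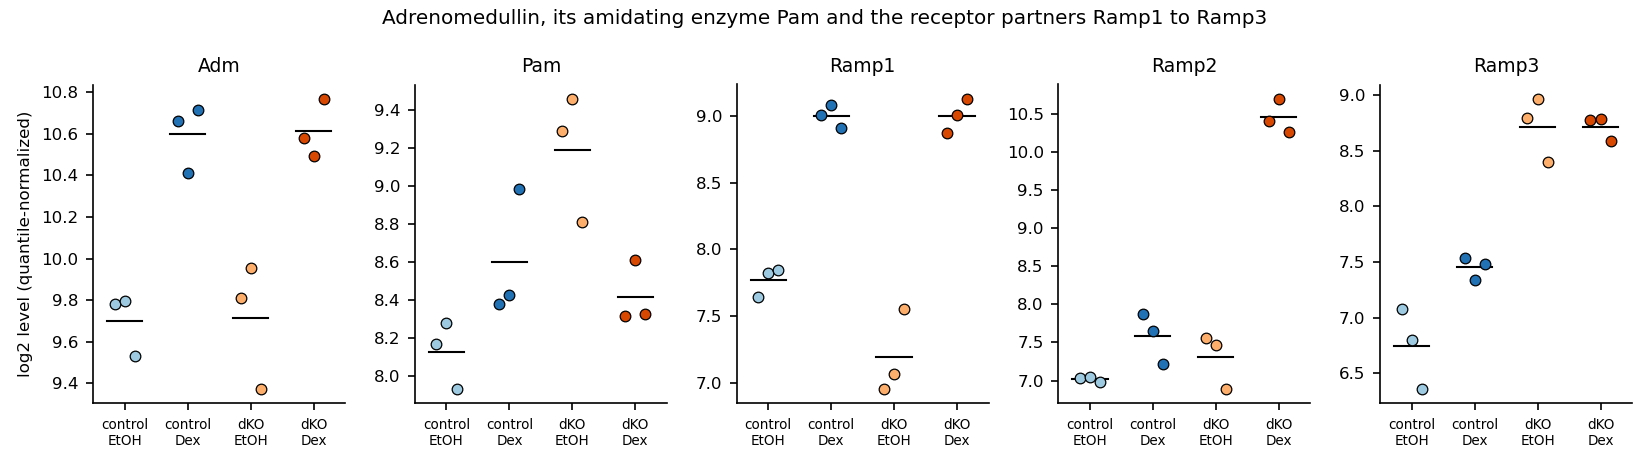
Log2 levels (y axis, own scale per panel) of Adm, Pam, Ramp1, Ramp2 and Ramp3 on each array by group (x axis), with bars for group means. The 3 dKO Dex points of Ramp2 lie between 10.26 and 10.69 and all other points between 6.89 and 7.87, while the Adm points of the 2 genotypes overlap within each treatment.

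Among relatives of Ndrg1 and Bnip3, Ndrg2 rose with Dex by 1.60 ± 0.22 in control and 1.10 ± 0.22 in dKO cells (adjusted p = 0.000307 and 0.00583), and the other 4 tested genes of that list were not called with Dex in either genotype. Without background correction the Ndrg2 changes were 0.74 and 0.57. In control EtOH, Ndrg2 was above background on 2 of 3 arrays (mean 6.20).

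**Figure D5:**
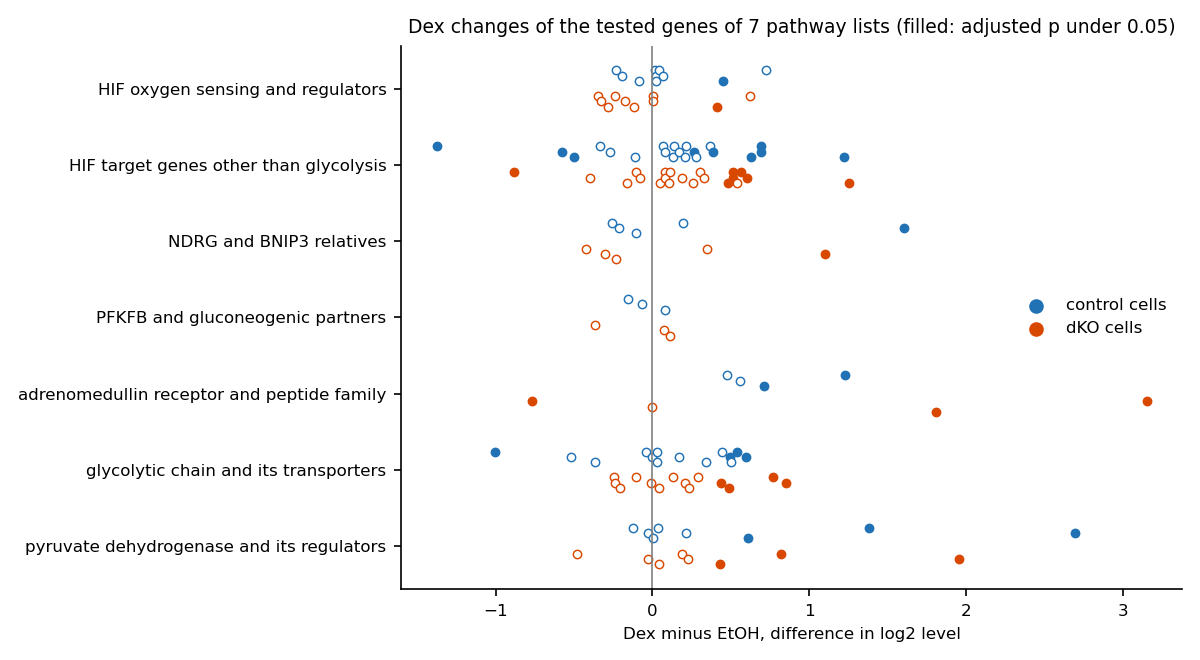
Dex minus EtOH difference in log2 level (x axis) of each tested gene in the 7 pathway lists (y axis), in control cells (blue) and dKO cells (orange), with filled circles for an adjusted p under 0.05. Pdk4 is the point at 2.69 in control cells and Ramp2 the point at 3.15 in dKO cells.

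The genes whose levels followed a tested gene most closely over the 12 arrays, by Pearson's r, were named as a description, since all 12 arrays share the 2 treatments and 2 genotypes. For Egln3 they were Nampt (0.985), Adam12 (0.979) and Sla (0.978), and for Adm they were Glul (0.956), Fdps (0.952) and Dpep1 (0.949). For Ndrg1 they were Pmvk, Rbpms and Sirt2 (0.929 to 0.934), for Hk2 they were Ddit4, Dusp14 and Pla2g12a (0.906 to 0.912), and for Ldha they were Macrod1, Rbpms and Nudt22 (0.898 to 0.906). Pdk1 was followed by Pcif1, Eif4e and Nr2c2ap (0.911 to 0.932), Pgk1 by Rnd3, Sec23a and Pdcl (0.893 to 0.913) and Egln1 by Rars, Sppl2b and Myo10 (0.850 to 0.859).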

How the data were processed

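Signals were measured on 12 Illumina bead arrays, in 4 groups of 3. The submitters' processing notes name GenomeStudio, and no version is given in the sources used here. Per the file headers, the deposited intensities are bead signals per probe before normalization, with detection p-values beside them. A deposited normalized table of intensities (linear, steps not stated) served as an alternative only. Per the labels' protocols, biotinylated cRNA was made from RNA purified with Trizol and RNeasy.

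Probes were named through the platform annotation, updated by Entrez identifier (23978 of 25697 probes had a symbol). Signals were corrected with nec of limma 3.58.1 (R 4.3.3) with an offset of 16, which pulls the changes of dim probes towards 0, quantile normalized and put on the log2 scale, which the deposited values are not. A probe was kept with a detection p under 0.01 on at least 3 arrays (11382 probes), and each gene was read from its kept probe with the highest mean (8420 genes). limma fitted 1 mean per group over the 12 arrays, with empirical Bayes variances and the Benjamini-Hochberg adjustment over all genes of a comparison. Further probes were read from the same fit on 11382 probes. The 5 comparisons were the Dex change of either genotype, the genotype difference under EtOH and under Dex, and the interaction (Dex change, dKO minus control). In simulated data 100 genes were changed by 1 and 100 by 0.5 (log2) among 8420 genes, with independent noise for each gene and array. Tested for Dex in control, 81% of changes of 1 and 30% of changes of 0.5 were recovered, with 5 false calls. In the data 20.3% of genes were called for Dex in control and 3 arrays stood apart. The simulation held neither, so its figures describe the simulated setting only. Precision is limited by the number of arrays.

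The genes, pathway lists, tests and alternatives were chosen with earlier results of these data known, so that patterns shown before are no independent support. Genes named are the 10 genes with all probes, up to 4 genes of smallest p per pathway list and comparison, Hif1a, Vegfa and Slc2a1, the 3 closest genes by correlation, and Fkbp5 and Per2 as checks. Same-numbered arrays of different groups had residual correlations from -0.18 to 0.14, not above 0.1 in every pair, so the numbers were not taken to pair the arrays. Across genotypes, however, each control EtOH array correlated best with the same-numbered dKO EtOH array (0.028, 0.12 and 0.12). The same held for control Dex replicates 2 and 3 with dKO Dex (0.028 and 0.14), and not for replicate 1 (-0.046). Between Dex and EtOH within a genotype all same-numbered correlations were negative. Alternatives covered background correction, offset, scaling, the deposited table, the detection filter, probes as separate items, the variance model, array weights, the groups fitted, replicate blocks and leaving out arrays. Promoter windows are from RefSeq (GRCm38.p6).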

Additional observations from a re-analysis of the deposited data

Results flagged for a closer look

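Of the 65 tested pathway genes, 3 had Dex changes that differed between genotypes in the test of the difference itself, where 2.29% of all genes were called. The test was the change in dKO less the change in control (limma, n = 3 arrays per group). A probe of Egln1 is listed with them. For Ramp2 the difference was 2.59 ± 0.28 (SE), with an adjusted p of 0.000851, and all 3 dKO Dex arrays were above the other 9. For Pam it was -1.24 ± 0.28 (adjusted p = 0.0454), and 17 of 24 alternatives lost the call, with adjusted p between 0.00283 and 0.168. Without the 3 arrays set apart, which are the highest for Pam, it was -0.68 (adjusted p = 0.168). For Selenbp1, a selenium-binding protein gene, it was 0.84 ± 0.18 (adjusted p = 0.0400), lost in 16 of 24 alternatives, with adjusted p between 0.00642 and 0.127. The probe ILMN_2617087 of Egln1 was listed with a difference of -1.16 (adjusted p = 0.0411 among 11382 probes, of which 1.35% were called). But it was above background in control Dex and dKO EtOH only and passed the filter through those groups. The other levels lie within background, so this size is not a measured difference. Without background correction the difference was -0.38 and was not called (limma adjusted p = 0.0752).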

How the results depend on the processing

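The Dex calls of Egln3 and Adm held in both genotypes in all 25 alternatives run, and that of Ndrg1 in dKO cells in 25, with changes of 1.19 to 1.57 and 1.16 to 1.62 for Egln3, 0.77 to 0.99 and 0.72 to 1.24 for Adm and 0.83 to 1.14 for Ndrg1. The number of tested genes called for Dex in control was 5 with all probes as separate items and 2 to 4 when single arrays were left out, and for Dex in dKO it was 7 with array weights and 3 to 5. For genotype in EtOH it was 2 with median scaling, 2 with all probes, 4 with array weights, 0 without the 3 arrays set apart (chosen after seeing the data) and 1 to 3 with single arrays left out. For genotype in Dex it was 2 with all probes, 2 with array weights, 0 with only the groups compared and 0 to 2 with arrays left out. For the interaction it was 1 with median scaling, 1 with all probes, 2 with array weights and 0 to 1 with arrays left out. With all probes, the Egln1 calls for Dex in control, genotype in EtOH and the interaction came from ILMN_2617087. The filter kept that probe through its high groups, so these calls are no evidence of a change. With single arrays left out, 1221 to 1986 of all genes were called for Dex in control and 1155 to 1946 for genotype in Dex. The causes were not tested. With the replicate number as a block over all arrays, 2, 3, 1, 1 and 0 of the tested genes were called in the 5 comparisons, where Hk2 in control (adjusted p = 0.0673) and Ldha in dKO cells (adjusted p = 0.0589) were lost. Among all 8420 genes this block called 1434, 912, 1794, 1387 and 37. With the block within genotype, 3, 3 and 0 of the tested genes were called for the Dex comparisons and the interaction, and the genotype comparisons could not be fitted. Among all genes 1233, 745 and 32 were called there. The block within genotype called Egln1 in control cells (adjusted p = 0.0345) and lost Hk2 (adjusted p = 0.103) and Ldha (adjusted p = 0.0799).

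With median scaling the all-gene medians shifted by -0.11, 0.11, -0.20, 0.03 and 0.23 in the order of the comparisons above. It gave 482 genes higher and 1312 lower against 745 and 961 for Dex in control, 871 and 343 against 726 and 504 for Dex in dKO, 518 and 2589 against 903 and 1331 for genotype in EtOH, and 596 and 101 against 108 and 85 for the interaction. Relative to these medians Egln3 rose with Dex by 1.53 and 1.48 and Adm by 0.92 and 0.90. Counts of all genes called moved by over 1.5 times with array weights, to 2824 (from 1706), 3159 (from 1230), 4146 (from 2234), 2905 (from 1662) and 1777 (from 193). For the interaction the count was also 315 without background correction, 326 with the deposited table, 59 with no filter, 37 and 32 with the replicate blocks, 68 without the 3 arrays and 31 to 1202 with single arrays left out. Without the 3 arrays 673 genes were called for Dex in dKO and 1411 for genotype in EtOH, the block within genotype gave 745 for Dex in dKO, and leaving out single arrays gave 717 to 2212 for Dex in dKO and 1448 to 3123 for genotype in EtOH. Without background correction changes of dimmer genes were smaller. Some were still called, such as -0.49 for Car9 and -0.82 for Aldoc for genotype in EtOH, 0.46 for Slc2a3 and 1.15 for Ramp1 with Dex in dKO, and 1.14 and 0.81 for Ramp3 for genotype in EtOH and Dex. Other calls were lost, such as those of Arnt with Dex in both genotypes (limma adjusted p = 0.0898 and 0.158). Ndrg2 for genotype in EtOH (0.25, adjusted p = 0.120) and the Dex calls of ILMN_2617087 of Egln1 were lost too.

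Changes that were not called turned sign as follows. With median scaling Pdk1 and Vegfa with Dex in control were -0.047 and -0.048, Adm and Hk2 for genotype in EtOH -0.22 and -0.19, and the Hk2 interaction 0.18. The Egln3 interaction was -0.048 without background correction and -0.022 with the deposited table. With array weights Pgk1 with Dex in control was -0.088, Hk2, Pgk1 and Hif1a for genotype in Dex were 0.066, 0.038 and 0.27, and the Adm interaction was -0.057. Without the 3 arrays Pgk1 and Vegfa with Dex in control were -0.033 and -0.050, Hif1a with Dex in dKO 0.36, Adm and Ldha for genotype in EtOH -0.33 and 0.094, Hif1a for genotype in Dex 0.17 and the Pdk1 interaction -0.041. With single arrays left out the ranges were -0.16 to 0.13 for the Adm interaction, -0.11 to 0.18 for Adm for genotype in EtOH, -0.075 to 0.077 for Adm for genotype in Dex, -0.018 to 0.17 for the Egln3 interaction, -0.026 to 0.18 for Pdk1 with Dex in control, -0.13 to 0.085 for Pdk1 for genotype in Dex, -0.12 to 0.021 for Hk2 for genotype in Dex, -0.033 to 0.36 for Pgk1 with Dex in control, -0.15 to 0.022 for Slc2a1 for genotype in Dex, -0.05 to 0.23 for Vegfa with Dex in control and -0.45 to 0.17 for Hif1a for genotype in Dex.

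Probes within the background limit the rest: for Bnip3 and Pfkfb3 a change was not detectable, and Egln1 and Pgk1 rest on signals close to background. The same limit holds for Car9 in dKO Dex and Ndrg2 in control EtOH.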
